A study of Mus musculus with 2 samples.

Results

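The genes Il10, Il19, Il20 and Il24 lie side by side on mouse chromosome 1 and encode related cytokines. They were examined here in a stretch of 220 kb, from 132740001 to 132960000 in build mm9, divided into 220 bins of 1 kb out of 2246042 covered bins in the genome. The stretch was set by position and not by its signal. The genes, intervals and rules were nevertheless chosen with earlier results of these data known. Of the 4 genes, Il10 was placed at 132.916 to 132.921 Mb, and Il24, Il20 and Il19 were given as points near 132.78, 132.80 and 132.83 Mb. For these 3 genes, 5 kb on either side of the point was taken. For Il10, 1 kb was added to each end of its span, which gave 7 kb.

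The data are from chromatin immunoprecipitation followed by sequencing (ChIP-seq) of mouse Th2 cells, 1 library precipitated for histone H3 acetylated at lysines (H3KAc) and 1 with polyclonal rabbit IgG as the background. Both libraries came from Th2 cells grown from CD4+CD62L+ spleen cells of C57BL/6 animals. The cells were stimulated through CD3 and CD28 for 5 days with 10 ng/ml IL-4 and 2 µg/ml of an antibody against interferon gamma, and then kept for 3 days at rest. No library of naive cells or of another helper T cell type was analysed, so no level below says how the locus changed on activation. The identity of the cells was not checked against marker genes here, because no mm9 gene annotation was used.

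IL-10 restrains inflammation, chiefly by acting on macrophages and dendritic cells, and Th2 cells are among the T cells that secrete it. IL-19, IL-20 and IL-24 form a subgroup of the same family. They signal through receptors that contain the IL-20 receptor beta chain and act mainly on epithelial cells and keratinocytes. Mouse IL-24 was also described as FISP, a protein that Th2 cells secrete after exposure to IL-4. Acetylation of histone H3 marks open chromatin, above all at active promoters and enhancers, and several enhancers of Il10 are known on both sides of and within the gene.

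In the RefSeq gene table of build GRCm38.p6 the order along the chromosome is Pigr, Fcmr, Il24, Il20, Il19, the long noncoding RNA gene Gm41952, Il10 and Mapkapk2. Pigr encodes the receptor that carries IgA across epithelia, Fcmr a receptor for IgM, and Mapkapk2 a kinase that acts below p38. Only the order was taken from that table, since its coordinates belong to another build. Where the neighbours' bodies begin or end in mm9 was therefore not determined.

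RefSeq start-flanking sequence was at hand for 2 of the 4 genes, Il20 and Il19. None was at hand for Il24 and Il10, so the letters found cannot be compared between genes of higher and lower acetylation. Each line gives the 250 bases before the annotated start on the minus strand of GRCm38.p6, at chr1:130911297-130911546 for Il20 and chr1:130940116-130940365 for Il19.
Il20: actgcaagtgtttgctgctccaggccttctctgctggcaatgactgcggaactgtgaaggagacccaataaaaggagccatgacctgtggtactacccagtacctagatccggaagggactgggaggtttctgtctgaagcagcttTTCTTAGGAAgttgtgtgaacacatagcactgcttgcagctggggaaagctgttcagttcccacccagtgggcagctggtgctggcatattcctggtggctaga
Il19: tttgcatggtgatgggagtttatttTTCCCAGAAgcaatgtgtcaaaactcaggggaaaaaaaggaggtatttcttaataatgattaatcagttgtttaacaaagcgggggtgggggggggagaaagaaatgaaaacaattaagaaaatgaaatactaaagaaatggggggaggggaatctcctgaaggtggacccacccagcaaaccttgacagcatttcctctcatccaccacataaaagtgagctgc
The capitals mark letters searched on both strands as signatures of STAT factors, which relay cytokine signals. Il20 held 1 match to TTC and GAA with 4 bases between them, the spacing preferred by STAT6, the factor that IL-4 activates. Of 32851 RefSeq promoter windows of the same length, 5.85% held this motif. Il19 held 1 match to TTCNNNGAA, the spacing of other STAT factors, found in 7.02% of windows. GGAAAN, the core bound by NFAT, matched 1 time in Il20 and 3 times in Il19, against 55.5% of windows with a match. Neither window held the TATA box letters TATAAA, which 12.4% of all windows held. Neither held the AP-1 letters TGANTCA, present in 6.75%, or the MAF letters TGCTGAC, present in 3.81%. For the GATA family, the family of the Th2 regulator encoded by Gata3, AGATAA was present in 9.99% of all windows and in neither gene's window, and the same was true of TGATAA at 7.94%. The CRE letters TGACGTCA, present in 1.55%, were absent from both as well. So were the E-box CACGTG, present in 6.02%, and the SP1 letters CCGCCC, present in 32.7%. A match is a string of letters and was not tested for binding.

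The H3KAc library held 19711169 distinct read positions and the IgG library 1897666. Reads that shared a chromosome, 5′ end and strand were counted as 1, moved 100 bp along their strand and given as reads per 1000000 distinct positions (RPM). With this scaling 1 read is worth 0.0507 RPM in H3KAc and 0.527 RPM in IgG, so IgG sets the precision. Intervals are exact 95% intervals and cover counting error only. Where IgG gave no read, "at least" precedes the lower end of the exact interval of the ratio. With 1 library per antibody there is no replicate check, and no p-value was computed.

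Across the 220 kb, H3KAc gave 3893 reads or 0.898 RPM per kb (0.870 to 0.926), and IgG gave 224 reads or 0.537 RPM per kb (0.469 to 0.612). The ratio of H3KAc to IgG was 1.67 (1.46 to 1.92). Over all covered bins of the genome the mean was 0.445 RPM per kb in each library. Among 11690 genome tiles of 220 kb, 93.1% had fewer H3KAc reads than this stretch. The signal was uneven, with bins from 0 to 130 H3KAc reads and a median of 13.

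**Figure D1:**
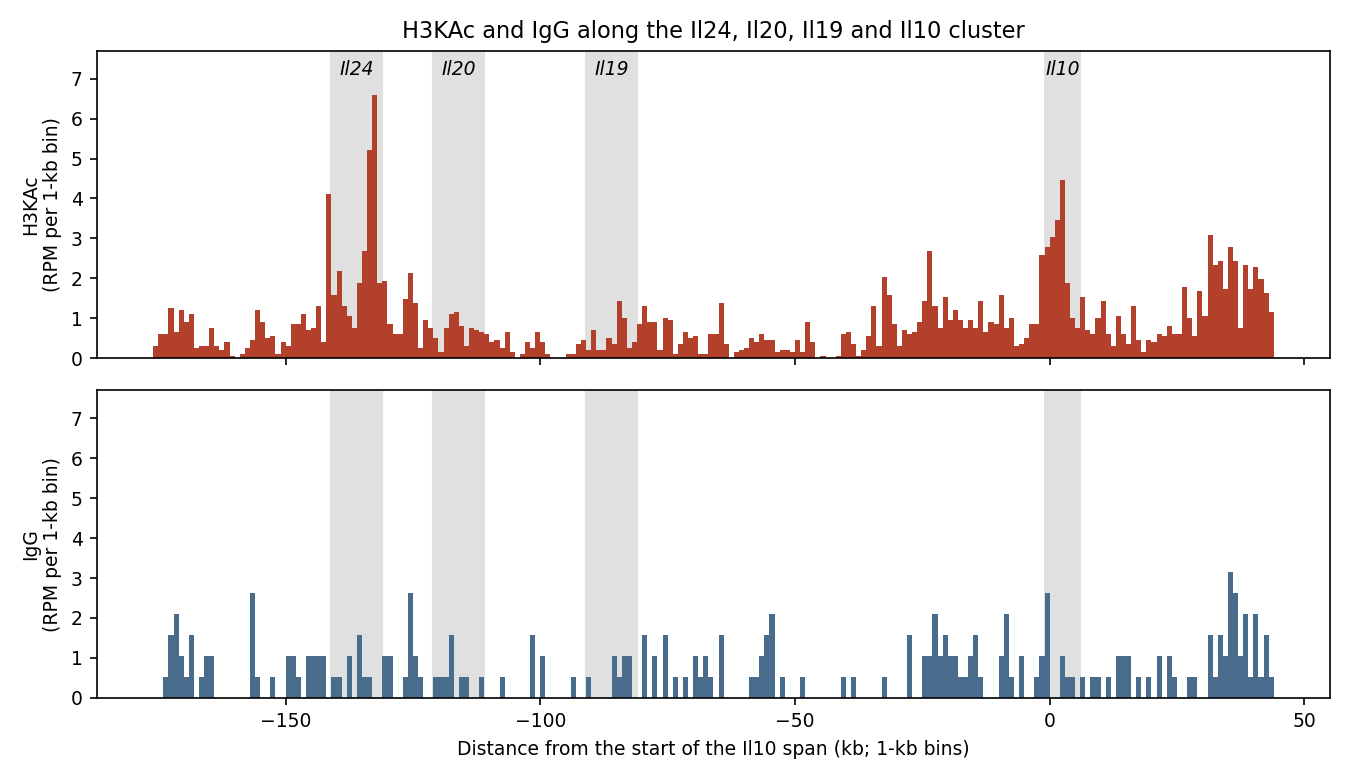
Levels in RPM per 1-kb bin along the cluster, with H3KAc above and IgG below on the same scale, against the distance from the start of the Il10 span; grey bands are the 4 gene intervals. H3KAc reaches 6.60 RPM in the Il24 interval and 4.46 RPM in the Il10 interval, while no IgG bin exceeds 3.16 RPM.

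Acetylation was higher at Il24 and Il10, the genes at the outer ends of the cluster, than at Il20 and Il19 between them. The Il24 interval had 2.52 RPM per kb in H3KAc (2.30 to 2.75) and 0.474 in IgG (0.217 to 0.900). The Il10 interval had 2.49 RPM per kb in H3KAc (2.23 to 2.76) and 0.678 in IgG (0.310 to 1.29). Both therefore lay above the background, with H3KAc over IgG ratios of 5.31 (2.77 to 11.7) for Il24 and 3.67 (1.91 to 8.09) for Il10.

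The Il20 interval had 0.695 RPM per kb in H3KAc (0.584 to 0.822) and 0.474 in IgG (0.217 to 0.900), a ratio of 1.47 (0.750 to 3.27). The Il19 interval had 0.528 RPM per kb in H3KAc (0.431 to 0.639) and 0.422 in IgG (0.182 to 0.831), a ratio of 1.25 (0.612 to 2.98). Neither ratio could be told from 1 at this depth, since the intervals rest on 9 IgG reads for Il20 and 8 for Il19. When every deposited read was counted, copies included as independent, the Il20 ratio was 1.93 (1.27 to 3.02), above 1, and that of Il19 was 0.995 (0.688 to 1.46).

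**Figure D2:**
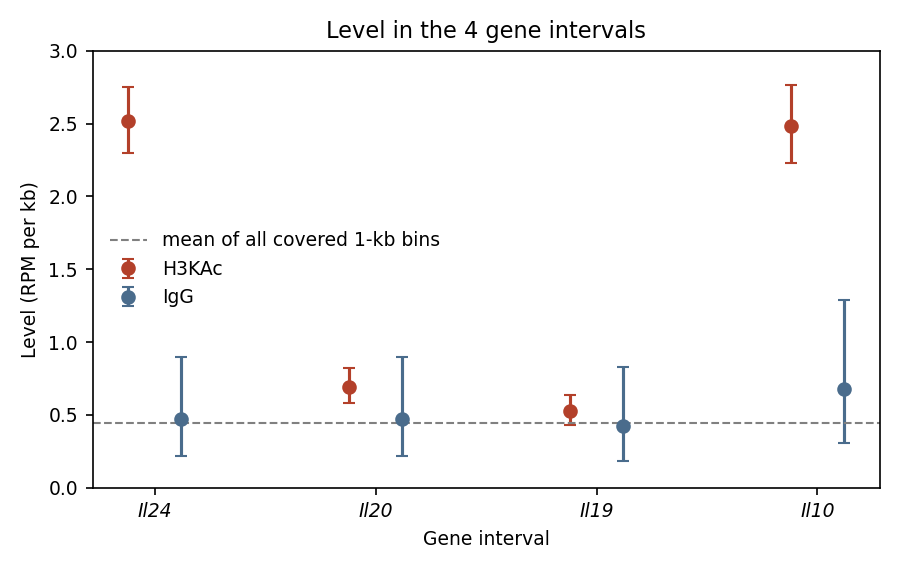
H3KAc and IgG levels in RPM per kb in the intervals of Il24, Il20, Il19 and Il10; points are the levels of the single libraries, bars are exact Poisson 95% intervals and the dashed line is the mean of all covered bins. The H3KAc points of Il24 and Il10 sit near 2.5 RPM per kb, and those of Il20 and Il19 lie near the IgG points.

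Measured within the H3KAc library alone, where depth is not limiting, the order of the levels per kb was Il24, Il10, Il20 and Il19. Of the 6 pairs of genes, Il24 and Il10 had a fold of 1.01 (0.880 to 1.16), an interval that holds 1. Il24 was 3.62-fold higher than Il20 (2.99 to 4.41) and 4.77-fold higher than Il19 (3.85 to 5.95). Il10 was 3.58-fold higher than Il20 (2.93 to 4.39) and 4.71-fold higher than Il19 (3.77 to 5.93). The Il10 interval follows its span, whereas the others lie around approximate points. Other placements were not tried for these folds. Il19 had 0.759 times the level of Il20 (0.583 to 0.987), whose upper bound lies close to 1.

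The IgG levels of the 4 intervals could not be told apart, as all 6 pairwise IgG folds, between 0.700 and 1.61, had intervals that hold 1. When each gene's H3KAc was divided by its own IgG, the Il24 ratio was 3.61 times that of Il20 (1.24 to 10.5) and 4.23 times that of Il19 (1.38 to 12.7). The Il10 ratio was 2.50 times that of Il20 (0.859 to 7.27) and 2.92 times that of Il19 (0.955 to 8.78), and both of these intervals include 1. The contrast of Il10 with the genes between thus rests on the H3KAc levels, and IgG was too shallow to settle it.

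Set against the genome, the Il24 interval had more H3KAc reads than 99.8% of 253936 tiles of 10 kb, and the Il10 interval more than 99.7% of 361828 tiles of 7 kb. The Il20 interval exceeded 84.4% and the Il19 interval 74.7% of the tiles of 10 kb. Many tiles elsewhere hold few reads, with a median of 0.279 RPM per kb, so a rank above the middle does not by itself show a signal over IgG.

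Single bins in the top 1% of the genome for H3KAc, at 46 or more reads, numbered 16 of 211 covered bins of the stretch, or 7.58%, against 1.02% of all covered bins. For the top 10%, at 19 or more reads, the count was 71 bins or 33.6%, against 10.0%. A call of enrichment over IgG, which asks for at least 5 reads in both libraries together and a lower bound of the ratio above 2, was met by 2 bins or 0.948%, against 0.0524% of all covered bins. Both of these bins, from 132774001 and from 132783001, lay in or next to the Il24 interval. With a lower bound above 1 there were 6 bins or 2.84%, against 0.409%, and the 3 added in Il10 were those from 132916001 to 132919000. With IgG taken over the 11 bins around each bin there were 13 or 6.16%, against 1.35%, and with a lower bound above 4 there was none, against 0.00120%. The 16 bins formed 5 regions when at most 1 bin was allowed between them. Since these regions were picked for high H3KAc, their H3KAc levels, and the ratios built on them, are a description.

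The strongest region lay in the Il24 interval and covered 3 kb from 132781001 to 132784000. Its bins held 53, 103 and 130 H3KAc reads, against 1, 1 and 0 IgG reads. The ratio over the region was 13.8 (3.78 to 114). The bin from 132783001 to 132784000, the highest of the stretch, had 6.60 RPM in H3KAc (5.51 to 7.83). IgG gave none there, so H3KAc was at least 3.34-fold higher. The bin was called enriched by that bound, so the bound is a description. The reads were shared by the strands, with 68 on plus and 62 on minus. The crest lay at 132783001 to 132783200, where 200 bp held 58 reads. The next 200 bp towards Il20 held 36, then 20 and 5. The following bins on that side, from 132784001 and 132785001, held 37 and 38 reads, and on the other side the bin from 132780001 held 37.

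A separate peak stood at the edge of the Il24 interval on the side of Fcmr, in the bin that adjoins it. The bin from 132774001 to 132775000 had 4.11 RPM in H3KAc (3.26 to 5.11) from 81 reads. IgG gave none, and H3KAc was at least 2.07-fold higher. This bin, too, was called by that bound, so the bound is a description. The 5 windows of 200 bp from 132774401 to 132775400 held 20, 24, 27, 11 and 2 H3KAc reads. Between this peak and the Il24 region, from 132775001 to 132781000, bins held 15 to 43 H3KAc reads. With bins of the top 10%, both peaks belonged to 1 region of 14 kb, from 132772001 to 132786000, with a ratio of 4.17 (2.51 to 7.49). Which of the peaks lies at the start of Il24 or in Fcmr was not determined.

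**Figure D3:**
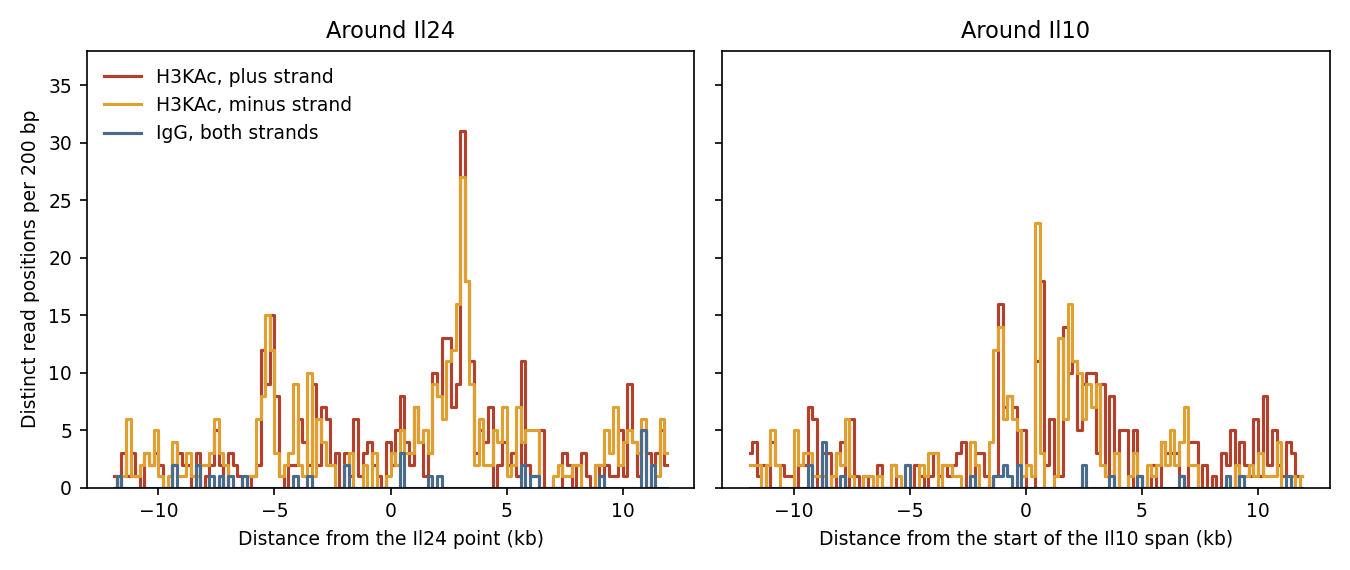
Distinct read positions per 200 bp within 12 kb of the Il24 point (left) and of the start of the Il10 span (right), with H3KAc reads of the plus and the minus strand drawn separately and IgG reads of both strands together. The highest Il24 window reaches 31 plus-strand and 27 minus-strand reads, and Il10 shows several lower crests that begin before the span.

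At Il10, H3KAc was high over 5 kb, from 132914001 to 132919000. Successive bins held 51, 55, 60, 68 and 88 H3KAc reads, against 2, 5, 0, 0 and 2 IgG reads. The region began 2 kb before the span and ended 3 kb into it. Its ratio was 3.44 (1.79 to 7.60). The 3 bins from 132916001 to 132919000, which lie inside the span, had 10.96 RPM in H3KAc against 1.05 RPM in IgG. Their ratio was 10.4 (2.84 to 86.4). These bins are those called with a lower bound above 1, so their ratio is a description. The span alone, set by position, had a ratio of 6.57 (2.54 to 24.3). The highest bin, from 132918001 to 132919000, had 4.46 RPM in H3KAc (3.58 to 5.50) and a ratio of 4.24 (1.14 to 35.5). None of the bins met the call with a lower bound above 2. The rest of the span held less, with 37 and 20 H3KAc reads in the bins from 132919001 and from 132920001, each with 1 IgG read.

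At 200 bp the Il10 region showed 3 crests. Before the span, the window from 132914801 to 132915000 held 30 H3KAc reads, in a bin whose ratio could not be told from 1. Inside it, 34 reads lay at 132916401 to 132916600, and 26 at 132917801 to 132918000. The 2 windows from 132916001 to 132916400 held 2 and 1 reads, and those from 132916801 to 132917400 held 2, 6 and 2. Short gaps of few reads therefore separated the crests at the beginning of the gene. In the crest at 132916401 to 132916600, 11 reads lay on plus and 23 on minus, and in the next 200 bp 18 on plus and 3 on minus. Whether reads can be placed uniquely in these gaps was not tested.

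The 80 kb between the Il19 and Il10 intervals had 0.688 RPM per kb in H3KAc (0.648 to 0.730) and 0.494 in IgG (0.389 to 0.619), a ratio of 1.39 (1.10 to 1.78). The level was higher on the side of Il10. In steps of 10 kb counted back from the Il10 span, H3KAc was 1.16, 0.949, 1.09 and 0.791 RPM per kb over the nearest 40 kb. It was 0.264, 0.340 and 0.406 in the following 30 kb, and 0.695 in the step after that, from 132836001 to 132846000. The steps of those 30 kb lay below the genome mean of 0.445 but were not unusually low. They exceeded 47.5%, 57.2% and 64.2% of genome tiles of 10 kb, whose median was 0.279 RPM per kb. The nearest step includes the bin from 132915001, which belongs to the Il10 interval and held 55 of its 229 H3KAc reads. IgG in the same order was 0.896, 0.632, 0.843 and 0.105 RPM per kb, then 0.105, 0.632 and 0.474, and 0.527 in the last of these steps.

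The highest bin of this interval lay 24 kb before the Il10 span, from 132892001 to 132893000. H3KAc reached 2.69 RPM there (2.01 to 3.52) from 53 reads, IgG gave 2 reads, and the ratio was 2.55 (0.672 to 21.6). With bins of the top 10% it belonged to 12 kb from 132891001 to 132903000, where H3KAc held 291 reads and IgG 25, a ratio of 1.12 (0.744 to 1.76). IgG averaged 1.10 RPM per kb there, above its 0.537 over the whole stretch. A smaller group of bins, from 132881001 to 132885000 and 35 to 31 kb before the span, had 26, 6, 40 and 31 H3KAc reads and 1 IgG read in all. Its ratio was 9.92 (1.74 to 395). The whole step of 10 kb that holds it had 0.791 RPM per kb in H3KAc and a ratio of 7.51 (2.04 to 62.6). This interval lies above 1, and it holds the ratios of the Il24 (5.31) and Il10 (3.67) intervals. The ratio of the step rests on 2 IgG reads. The step was named after its value was seen, so its ratio is a description. The group was picked for its H3KAc and its few IgG reads, so its ratio describes that choice and is not read as enrichment. Its H3KAc level was 1.31 RPM per kb, against 3.27 in the Il10 region.

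**Figure D4:**
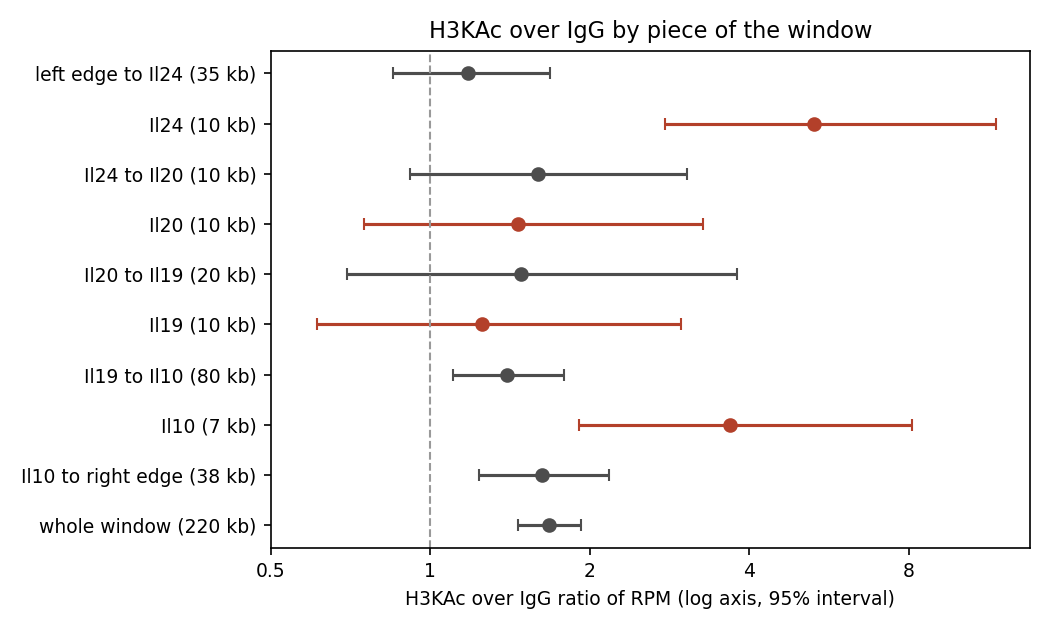
H3KAc over IgG ratio of RPM on a log axis for 9 adjoining pieces of the stretch and for the whole, with exact 95% intervals; gene intervals are red. Il24 at 5.31 and Il10 at 3.67 lie to the right of the other pieces drawn, which do not include the steps of 10 kb. The intervals of Il20 and Il19 cross 1.

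H3KAc levels fell from Il24 to the gap between Il20 and Il19. They were higher again in the Il19 interval, at 0.528 RPM per kb (0.431 to 0.639). The 10 kb between the Il24 and Il20 intervals had 1.10 RPM per kb in H3KAc (0.955 to 1.25) and 0.685 in IgG (0.365 to 1.17), a ratio of 1.60 (0.916 to 3.05). This H3KAc level exceeded 95.1% of genome tiles of 10 kb, and 5 of the 10 bins were in the top 10%, but the ratio could not be told from 1. The 20 kb between Il20 and Il19 had 0.274 RPM per kb in H3KAc (0.225 to 0.331) and 0.184 in IgG (0.0742 to 0.380), and no bin there exceeded 13 H3KAc reads. In the Il20 interval the highest bin, from 132799001 to 132800000, held 23 H3KAc reads, and IgG gave none. In the Il19 interval the highest bin, from 132831001 to 132832000, held 28 H3KAc reads and 1 IgG read. Over the stretch, 9 bins held no read in either library, among them the 3 bins from 132818001 to 132821000 in the gap between Il20 and Il19. Bins without any read may be sequence in which reads cannot be placed, which was not tested.

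On the far side of Il10, towards Mapkapk2, H3KAc was high again over a broad part of the stretch. The region from 132947001 to 132955000, 31 to 39 kb after the start of the Il10 span, had 2.24 RPM per kb in H3KAc (2.01 to 2.48) and 1.71 in IgG (1.12 to 2.51). Its H3KAc level was thus near that of the Il24 and Il10 intervals, but its ratio was 1.31 (0.877 to 2.03). The whole 38 kb from the Il10 interval to the edge, set by position, stood above IgG with a ratio of 1.62 (1.23 to 2.17). The step of 10 kb from 132941001 to 132951000, which overlaps the region, had a ratio of 2.81 (1.55 to 5.68). The region of top 10% bins from 132942001 to 132960000 had 1.64 (1.18 to 2.33). That step was named after its value was seen and the top 10% region was picked for high H3KAc, so both ratios are a description. The highest bin of the region from 132947001 to 132955000 was its first, with 61 H3KAc reads and 3 IgG reads. The bin with the most IgG reads of the stretch, 6, lay in the same region, from 132951001 to 132952000, and held 55 H3KAc reads. The bins that followed in IgG, with 5 reads each, included the one from 132952001 in this region, which held 48 H3KAc reads. The others were the one from 132915001 at the edge of Il10, which held 55, and those from 132759001 and 132790001, which held 9 and 42. Bins high in H3KAc elsewhere in the genome also had more IgG. The 22869 bins of the top 1% averaged 4.11 RPM per kb in H3KAc and 2.13 in IgG, a ratio of 1.93 (1.92 to 1.94), and the 16 such bins of the cluster averaged 3.32 and 1.15, a ratio of 2.88 (2.06 to 4.15). Both sets were picked for high H3KAc, so their ratios are a description, and the intervals do not cover that choice. Over the 220 bins, H3KAc and IgG read counts had a Pearson r of 0.301, which is a description of bins that share their libraries and their sequence.

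The 4 gene intervals together made up 16.8% of the stretch and held 27.7% of its H3KAc reads. They had 1.48 RPM per kb in H3KAc and 0.498 in IgG, a ratio of 2.97 (2.12 to 4.29), against 0.780 and 0.544 and a ratio of 1.43 (1.24 to 1.67) in the rest of the stretch. The pooled ratio does not describe each gene. The ratios of Il24 and Il10 were 5.31 and 3.67, and those of Il20 and Il19 were 1.47 and 1.25, near that of the rest. The gene positions of Il24, Il20 and Il19 are known here only to about 10 kb. With 3 kb on either side the Il24 ratio was 3.51 (1.68 to 8.81), and with 10 kb 3.27 (2.15 to 5.26). Without its 2 highest bins, which was tried after seeing the data, it was 3.17 (1.58 to 7.41).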

How the data were processed

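Per the deposited description of the files, each row holds the chromosome, start, end and strand of 1 aligned read of 35 bases. Alignment was to mm9 with Bowtie, per the submitters' processing notes. Its version, its settings for reads that match several places and its filters were not given in the sources used. The deposited values are positions without normalization, and all counts, RPM and ratios were computed from them. Ratios carry exact conditional binomial (Clopper-Pearson) intervals and levels exact Poisson intervals, both at 95% and for counting error only. Ratios of ratios carry exact conditional odds-ratio intervals. Copies made by PCR had no molecular identifier. Bins count as covered with at least 1 read in either library, and regions join bins with at most 1 bin between them. The bins named are those called enriched, the 10 highest in H3KAc, the 3 highest in IgG (with ties) and the highest of each gene interval. Bins in the top 1% are named through their regions. Other features are described from the steps of 10 kb and windows of 200 bp, chosen after their values were seen. The genes, intervals and rules were chosen with earlier results of these data known. A planned look at pathway and marker genes needs an mm9 annotation and was left out. The calling was tested on simulated data. Computation was in Python 3.11.15 with pandas 2.3.3, numpy 2.4.6 and scipy 1.17.1, and plotting in matplotlib 3.10.9.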

Additional observations from a re-analysis of the deposited data

How the results depend on the processing

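The ratios of the Il24, Il10, Il20 and Il19 intervals stayed within their 95% intervals under every alternative run, from 3.17 to 6.14 for Il24 and 2.32 to 6.57 for Il10 (10 alternatives each), and from 1.29 to 2.22 for Il20 and 0.995 to 1.42 for Il19 (9 each). Counting every deposited read moved the lower bound of the Il20 ratio above 1, at 1.27. The lowest Il10 value came with all reads as deposited and the highest with its span alone. The ratio of the whole stretch kept its place in 7 of 8 alternatives and was 1.45 without the bins in the top 1% of H3KAc, which removes signal by construction. The alternatives that leave out bins were chosen after seeing the data. The 2 bins enriched over IgG became 18 when every deposited read was counted, 13 with IgG over 11 bins, 6 with a lower bound above 1, 1 each with thinned H3KAc, with 500-bp bins and with bins moved by 500 bp, and 0 with plus-strand reads, with minus-strand reads and with a lower bound above 4. The 16 bins in the top 1% became 7 with thinned H3KAc, 71 with the top 10% and 1 with the top 0.1%. With all reads, copies enter as independent, and reads of 1 strand or thinned reads are fewer; other causes were not tested. The lower bound for the bin from 132783001 was 1.70 from the plus strand alone and 1.60 from the minus strand alone. The bin from 132774001 had 0.953 from the plus strand, 1.07 from the minus strand and 0.660 with thinned H3KAc. No paired analysis was possible because each antibody had 1 library. The depth of IgG limits every ratio of a single bin.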

Other observations

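Repeats, the reads left aside because an earlier read had the same position and strand, were not part of the counts above. In the stretch they numbered 388 in H3KAc and 739 in IgG, or 17.8 and 96.9 per 1000000 reads of the library. The mean number of reads per position in the stretch was 1.10 for H3KAc and 4.30 for IgG. Over the whole libraries it was 1.11 for H3KAc and 4.02 for IgG, so repeats were frequent throughout the IgG library.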
